A study of Homo sapiens with 2 samples.

Results

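MYC and the proteins that share its dimer partner MAX form a network of basic helix-loop-helix leucine zipper transcription factors. MYC pairs with MAX and raises transcription from genes carrying an E-box, a short palindrome in the DNA. MXD1, MXI1, MXD3, MXD4 and MNT pair with the same MAX, occupy the same E-box and recruit the SIN3 corepressor, while MGA joins MAX within a Polycomb-type repressor complex. MLX stands beside MAX as a second hub, and it pairs with MondoA (MLXIP) and with some of the repressors. MYC is a driver oncogene of growth and ribosome production in many carcinomas, lung adenocarcinoma included.

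The 9 genes described here are MYC, MAX, MXI1, MXD1, MXD3, MXD4, MNT, MGA and MLX, taken by symbol from the 13137 genes of the deposited table, and all 9 were found. The 2 libraries compared were both from A549, a human lung adenocarcinoma line with epithelial character. In each, a lentiviral H1tetO cassette gave a doxycycline-inducible hairpin in puromycin-selected polyclonal cells, and both cultures received doxycycline for 4 days. The hairpin was directed against SOX2 in A549-H1tetO-shRNA-SOX2 and was a scrambled sequence in A549-H1tetO-shRNA-Con, and only 1 SOX2 hairpin was used. Digital gene expression gives a short sequence tag from each captured poly(A) mRNA, so that a gene's tags do not grow with transcript length, and tags are sequenced reads without molecular identifiers.

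There is 1 library per condition and thus no spread between cultures. All tests and intervals below compare these libraries, not the conditions, and cover counting error only. The shRNA-Con library held 2304184 gene tags and the shRNA-SOX2-labelled library held 2093816. These were 65.5% and 60.6% of their clean tags. The table heads its columns SC and S1. SC was read as shRNA-Con and S1, by exclusion, as shRNA-SOX2. The targeted gene SOX2 had 16 tags with shRNA-Con and 23 in the shRNA-SOX2-labelled library, and the ratio was 1.58 (95% interval 0.80 to 3.20), so that a fall below 0.80 lies outside the interval. The SOX2 value thus goes against the label of that library as read, and every direction given below rests on that reading. Of the A549 markers, KRT8, KRT18, ALDH1A1 and AKR1B10 each had between 10620 and 21303 tags in the libraries together, whereas the leukocyte gene PTPRC had 4, the endothelial gene PECAM1 had 3 and the fibroblast gene COL1A1 had 87. KRT19 (35 tags with shRNA-Con and 127 in the other library), ALDH1A1 (7035 and 14268) and KRT8 (7702 and 12729) were called higher in the shRNA-SOX2-labelled library, and KRT18 (10318 and 7887) and AKR1B10 (6039 and 4581) lower. The part of these differences in the results below was not tested. AKR1C1, CD3E, CDH5, DCN and ALB were looked for by symbol and not found in the table, so no value is given for them. Calls here and below are genes past a false discovery rate (FDR) of 0.001 in Fisher's exact test, adjusted over all 13137 genes. By that rule 21.7% of all genes were called, 12.2% lower and 9.53% higher in the shRNA-SOX2-labelled library. The median log2 fold change of the 10045 genes with at least 20 tags was -0.10.

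The E-box that these proteins bind reads CACGTG, and it is its own reverse complement. In the RefSeq set of promoter windows (GRCh38.p14, 250 bases before to 50 after a start site), 8 of the 9 genes had a window, 13 windows in all. MYC was the gene without a window, so its promoter was not searched. The E-box was found in 1 window each of 3 of the 8 genes with a window, MLX, MNT and MXD4. It stood in 7.26% of all 35116 windows of that length, and 13.4% of the 8293 genes with at least 20 tags and a window had it in at least 1 of theirs. The 3 windows are printed because they place the network's own binding letters upstream of network genes, with the E-box in capitals. A match is a description of the sequence and not a measured binding site. The MLX window is chr17:42566850-42567149 on the plus strand, and its E-box starts 50 bases before the start site. The MNT window is chr17:2401011-2401310 on the minus strand, with the E-box starting 193 bases before the start site. The MXD4 window is chr4:2262060-2262359 on the minus strand, with the E-box starting 238 bases before it.
MLX: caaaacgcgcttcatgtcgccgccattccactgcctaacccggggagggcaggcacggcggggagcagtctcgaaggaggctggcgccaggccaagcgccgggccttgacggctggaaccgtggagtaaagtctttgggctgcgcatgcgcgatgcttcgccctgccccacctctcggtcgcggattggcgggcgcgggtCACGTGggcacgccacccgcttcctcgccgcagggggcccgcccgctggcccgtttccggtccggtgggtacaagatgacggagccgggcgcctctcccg
MNT: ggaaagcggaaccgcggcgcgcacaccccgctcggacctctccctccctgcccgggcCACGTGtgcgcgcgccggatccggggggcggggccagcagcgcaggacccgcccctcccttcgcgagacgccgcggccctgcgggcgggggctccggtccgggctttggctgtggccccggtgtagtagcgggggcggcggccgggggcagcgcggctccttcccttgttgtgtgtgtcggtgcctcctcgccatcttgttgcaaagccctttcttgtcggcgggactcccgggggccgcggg
MXD4: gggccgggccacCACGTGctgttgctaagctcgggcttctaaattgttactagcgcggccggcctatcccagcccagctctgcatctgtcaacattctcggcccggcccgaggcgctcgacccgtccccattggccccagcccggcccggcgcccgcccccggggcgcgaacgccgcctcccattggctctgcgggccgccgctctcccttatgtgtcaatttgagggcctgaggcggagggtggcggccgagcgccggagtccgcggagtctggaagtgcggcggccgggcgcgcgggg

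MYC fell, and it was the only member of the network that was called. MYC (Entrez Gene ID 4609; 8:127735434-127741434 on the plus strand in GENCODE 29, GRCh38) had 542 tags in shRNA-Con, or 235 CPM (tags per 1000000 gene tags; 95% Poisson interval 216 to 256). In the shRNA-SOX2-labelled library it had 125 tags, or 59.7 CPM (49.7 to 71.1). The intervals lie far apart, and the level was 3.94-fold lower (95% interval 3.24 to 4.83), a log2 fold change of -1.98 (Fisher's exact test, adjusted p = 1.12e-52). The 9 genes thus held 1 call, or 11.1%, beside 21.7% among all genes. Calls depend on depth, and MYC had the most tags of the 9, with 667 in all. A member that was not called is thus not shown to be unchanged. Of the 1166 genes with at least as many tags as MYC in both libraries together, 10 had a log2 fold change of -1.98 or lower, MYC included. The others, singled out only after their values were seen, were TRIB3, XPOT, SMOX, ATP2A2, MTHFD2, CEBPG, IARS, ZNFX1-AS1 and AARS. In bulk RNA, a lower level in every cell and fewer cells with a high level cannot be told apart. The call of MYC rests on counting error alone. If cultures are assumed to vary with a coefficient of variation of 0.1, MYC was past the threshold (edgeR's exact test, adjusted p = 4.46e-13), with 0.2 it was just short of it (adjusted p = 0.00103), and with 0.4 it was far from it (adjusted p = 0.937).

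**Figure D1:**
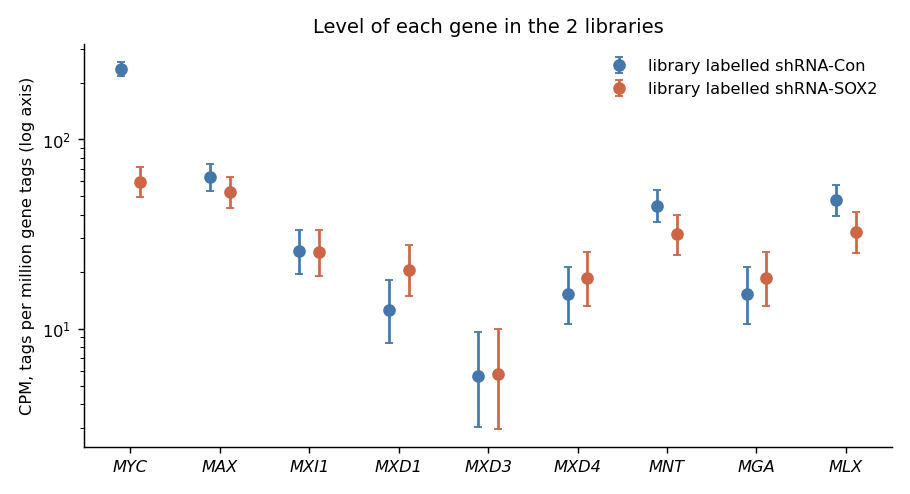
Level of each gene in CPM, on a log axis, in the library labelled shRNA-Con (blue) and that labelled shRNA-SOX2 (orange). Bars are 95% Poisson intervals of 1 library each. MYC drops from 235 to 59.7, while the intervals of the other 8 genes overlap between the libraries. Such overlap is not a test, and its share among all genes is not given here. For MNT and MLX the 95% intervals of the log2 fold change lie below 0 (-0.97 to -0.04 and -1.01 to -0.11).

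MAX, the obligate partner of MYC, had 146 tags with shRNA-Con and 110 in the shRNA-SOX2-labelled library, or 63.4 and 52.5 CPM. The log2 fold change was -0.27 (95% interval -0.64 to 0.10), close to the median of all counted genes, and it was not called (Fisher's exact test, adjusted p = 0.267). A fall of MAX as large as that of MYC lies outside this interval. Within a library the tags of both genes can be set against each other, which leaves the scaling between libraries out. There were 3.71 MYC tags for each MAX tag in shRNA-Con (95% interval 3.09 to 4.49), and 1.14 in the shRNA-SOX2-labelled library (0.872 to 1.48). MYC tags therefore outnumbered MAX tags beyond counting error in the control library and did not in the other.

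The repressors that compete with MYC for MAX had fold changes on both sides of 0, and none was called. MXD1, a repressor linked to differentiation, had the largest positive change, from 29 tags with shRNA-Con to 43 in the shRNA-SOX2-labelled library. Its log2 fold change was 0.71 (95% interval -0.01 to 1.44; Fisher's exact test, adjusted p = 0.103). MXI1 had 59 and 53 tags, 25.6 and 25.3 CPM, a log2 fold change of -0.02 (-0.58 to 0.54). This value changes sign with the scaling, as it was 0.06 with TMM factors. MXD3, linked to proliferating cells, had only 13 and 12 tags, and its log2 interval of -1.24 to 1.27 holds changes of over 2-fold in either direction, which were not detectable at this depth. Its log2 fold change of 0.02 turned to -0.09 with clean tags.

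MXD4, whose window carries the E-box farthest from the start site, had 35 tags with shRNA-Con and 39 in the shRNA-SOX2-labelled library. The log2 fold change was 0.29 (95% interval -0.40 to 0.99; Fisher's exact test, adjusted p = 0.563). MGA, the largest protein of the network, had exactly the same 35 and 39 tags, and these 2 genes were the only ones of the table with that pair of values. They lie on chromosomes 4 and 15, and 47 genes of the table had 74 tags in total.

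MNT, the most abundant repressor of the network in tags, had 103 with shRNA-Con and 66 in the shRNA-SOX2-labelled library. The log2 fold change was -0.50 (95% interval -0.97 to -0.04), with an unadjusted p of 0.0308 and an adjusted p of 0.0758 in Fisher's exact test. MLX had 110 and 68 tags, for a log2 fold change of -0.56 (-1.01 to -0.11; Fisher's exact test, adjusted p = 0.0369). Both intervals lie below 0, but neither gene was past FDR 0.001. At FDR 0.05, where 21.0% of all genes were called lower, MYC and MLX passed. The scaling decided this for MLX, whose adjusted p in Fisher's exact test was 0.0735 under TMM scaling, 0.0733 under median-ratio scaling and 0.00882 under clean-tag scaling. With clean tags MNT was also under 0.05 (Fisher's exact test, adjusted p = 0.0207). MNT and MLX carry an E-box in the windows above, as does MXD4, whose value lay on the other side of 0.

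**Figure D2:**
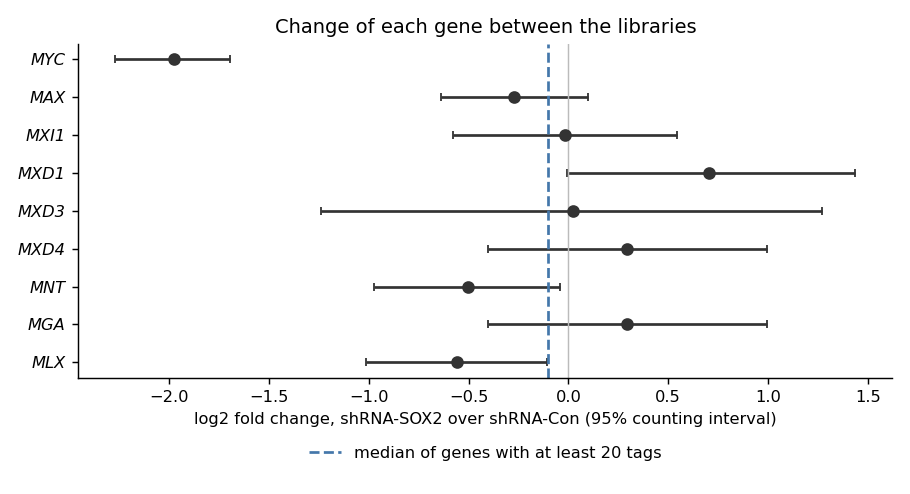
Log2 fold change of each gene, shRNA-SOX2 over shRNA-Con, with its 95% Clopper-Pearson interval from the tags of 1 library each, and the median of counted genes (-0.10, dashed). MYC lies at -1.98, and the other 8 genes lie between -0.56 and 0.71.

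By level, the order in shRNA-Con ran MYC, MAX, MLX, MNT, MXI1, then MXD4 and MGA at the same value, MXD1 and MXD3. Neighbours that did not differ beyond counting error were MLX and MNT, MGA and MXD4, and MXD4 and MXD1. In the shRNA-SOX2-labelled library MYC and MAX led without differing from each other. MAX stood above MLX by a ratio of 1.62 (95% interval 1.18 to 2.22). From MLX down through MNT, MXI1, MXD1, MGA and MXD4 no neighbouring pair differed beyond counting error, and MXD3 was last.

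A share of MYC was taken at the mRNA level, from the tags of MYC, MXI1, MXD1, MXD3, MXD4, MNT and MGA, whose proteins compete for MAX. MYCN and MYCL were not found in the table and are not part of it. In shRNA-Con these 7 genes had 816 tags, and MYC made up 66.4% of them (95% Clopper-Pearson interval 63.1 to 69.7). In the shRNA-SOX2-labelled library they had 377 tags, and the share of MYC was 33.2% (28.4 to 38.2). These intervals do not overlap, and the shares do not depend on how the libraries are scaled. The 6 competitors together were at nearly the same level in both, at 119 CPM with shRNA-Con and 120 CPM in the other library. Unlike the share, this level depends on the scaling. The sum also joins a lower MNT (103 and 66 tags) with a higher MXD1 (29 and 43). The change in the share came mainly from MYC tags. In shRNA-Con 542 stood against 274 competitor tags, and in the shRNA-SOX2-labelled library 125 against 252. Tags measure mRNA, and the amounts of the proteins were not measured here.

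Against all counted genes, MYC had the 187th lowest log2 fold change of 10045, that is, 1.85% of them were lower. MAX had 41.5% of the counted genes below it, MNT 30.1% and MLX 27.8%, so these 3 lay within the bulk. MXD1 had 83.0% of genes below it. The genes most like MYC, of 289 with total tags within 10% of its own, were SLC7A1, a cationic amino acid transporter with 485 and 128 tags, U2AF1, a splicing factor with 511 and 139, and MGLL, a monoacylglycerol lipase with 509 and 94. For MAX they were PLIN3, SRRT and WDR36, of 572 such genes. Likeness here is a near log2 fold change between 2 libraries and nothing more.

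**Figure D3:**
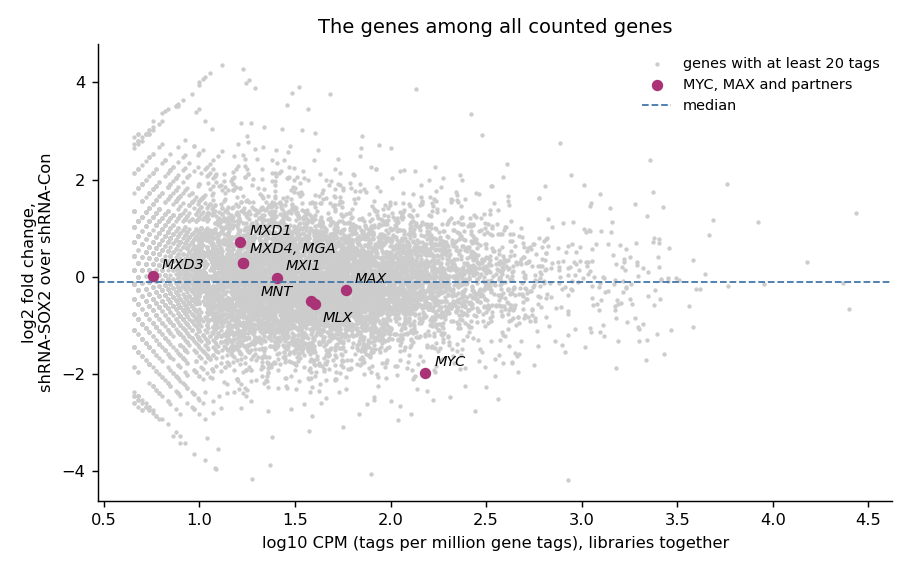
Log2 fold change, shRNA-SOX2 over shRNA-Con, against the level of each gene in both libraries together (log10 CPM), for genes with at least 20 tags (grey) and the 9 network genes (purple). MYC lies at the lower edge of genes of its level, and the other 8 lie inside the cloud.

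None of the partners of MLX or the other E-box factors was called. MLXIP, which encodes MondoA, the nutrient-sensing partner of MLX, had 27 tags with shRNA-Con and 7 in the shRNA-SOX2-labelled library. Its log2 fold change of -1.81 did not pass (Fisher's exact test, adjusted p = 0.00605). MLXIPL had 4 and 2 tags. TXNIP, a glucose-regulated arrestin and the best known MondoA target, had 38 and 17 tags, for a log2 fold change of -1.02 (Fisher's exact test, adjusted p = 0.0407). TFAP4, itself described as a MYC target, came nearest to a call among the other E-box factors, with 33 and 8 tags and a log2 fold change of -1.91 (Fisher's exact test, adjusted p = 0.00113). The stress and lysosome factors TFE3 (260 and 204 tags) and TFEB (10 and 5), the melanocyte factor MITF (95 and 57), the sterol factors SREBF1 (166 and 114) and SREBF2 (33 and 33), USF1 (8 and 3) and USF2 (37 and 18) had log2 fold changes between -1.28 and 0.14. MYCN, MYCL, TFEC and ARRDC4 were looked for and not found in the table, so no value is given for them.

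Genes that act on MYC itself were called in both directions. In the list for MYC protein turnover 4 of 16 genes fell and 1 rose, where 12.2% and 9.53% of all genes did. The median of this list was 166.5 tags in both libraries together. Of its 11 genes with at least 100 tags 36.4% fell and none (0) rose, where 22.5% and 16.6% of all such genes did. The only rise, that of FBXW7, was of a gene with 62 tags in all and lay outside that set. FBXW7, the substrate-binding subunit of the ubiquitin ligase that marks phosphorylated MYC, rose from 15 tags with shRNA-Con to 47 in the shRNA-SOX2-labelled library, which is a log2 fold change of 1.79 (Fisher's exact test, adjusted p = 5.59e-05). Among the genes that fell were the ubiquitin ligase HUWE1 (360 to 218 tags), SET (1899 to 973), an inhibitor of the phosphatase PP2A, and PPP2CA (454 to 289), its catalytic subunit. SET had a log2 fold change of -0.83. The median of the list was -0.55, beside -0.10 over all counted genes. SET has processed pseudogenes, and how shared tags were counted is not given in the sources used here.

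In the list of regulators of the MYC gene and its mRNA, 4 of 9 genes fell and 2 rose. All 9 had at least 100 tags, with a median of 351, and 22.5% of all genes with at least 100 tags fell while 16.6% rose. FUBP1, which binds a single-stranded element upstream of MYC, went from 152 tags to 55, a log2 fold change of -1.33. PTBP1, an RNA-binding splicing regulator, went from 251 to 100 (-1.19), ELAVL1, an mRNA-stabilizing protein, from 187 to 107 (-0.67), and CNBP from 626 to 435 (-0.39). CTNNB1, encoding beta-catenin of the WNT pathway, rose from 193 tags to 266 (0.60) and HNRNPK from 1892 to 2129 (0.31). The median of this list was -0.05, near that of all counted genes.

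Genes of the complexes that MYC and its competitors recruit were called in both directions. Of 16 coactivator genes 2 fell and 1 rose, where 12.2% and 9.53% of all genes did. The acetyltransferase gene CREBBP fell from 236 tags to 118 (log2 fold change -0.86) and RUVBL1, an ATPase of the TIP60 complex, from 198 to 105 (-0.78). KAT2A, the acetyltransferase GCN5, rose from 195 to 266 (0.59). In the SIN3 corepressor list 3 of 15 fell, namely BRMS1 (124 to 44 tags, -1.36), NCOR1 (109 to 42, -1.24) and the deacetylase HDAC2 (404 to 261, -0.49). Of the 9 genes of the complex that holds MGA and PCGF6, RYBP fell from 204 tags to 57 (-1.70) and its relative YAF2 from 175 to 64 (-1.31). E2F6, the DNA-binding E2F of that complex, rose from 95 tags to 149 (0.79), and PCGF6 itself had 37 and 47 tags and was not called. These lists had medians of 204, 155 and 239 tags, against 89 for all genes. At 100 tags or more 22.5% of all genes fell and 16.6% rose. Of such coactivator genes 16.7% fell and 8.33% rose, and in the SIN3 list 27.3% fell and none (0) rose. In the list with MGA and PCGF6 28.6% fell and 14.3% rose. The list shares rest on 12, 11 and 7 genes.

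Of the 59 genes found that are described as activated by MYC, 22 fell and 6 rose. Of the 57 with at least 20 tags, 43 had a log2 fold change below 0, as did 5536 of the 10045 such genes of the table, and their median was -0.58. Calls depend on depth, and this list had a median of 314 tags in the libraries together against 89 for all genes. Among genes with at least 100 tags 38.5% of the list fell, against 22.5% of all genes, and 11.5% rose, against 16.6%. The largest falls were those of RRP9, a U3 snoRNP protein (36 to 5 tags, -2.71), AIMP2, a scaffold of the tRNA synthetase complex (42 to 9, -2.08), GNL3, the nucleolar GTPase nucleostemin (235 to 79, -1.43), and RCL1, which acts in ribosomal RNA processing (154 to 56, -1.32). The genes that rose included MCM4, a subunit of the replicative helicase (38 to 83 tags, log2 fold change 1.27), the mitochondrial chaperonins HSPE1 (2013 to 3507, 0.94) and HSPD1 (2024 to 2305, 0.33), and NCL, nucleolin (2469 to 3585, 0.68). LDHA and PTMA rose by only 0.15 and 0.19 on the log2 scale when scaled by gene tags. Clean-tag scaling moved the median of counted genes from -0.10 to -0.22, so rises this small depend on the scaling. HSPE1, HSPD1, NCL, LDHA and PTMA were among the best counted of the list, and some of these have processed pseudogenes that could share tags. Elsewhere in the list ODC1 had 296 and 215 tags (-0.32), CDK4 had 318 and 254 (-0.19) and NPM1 had 6725 and 5723 (-0.09). These 3 were not called. CAD (280 to 115 tags, -1.15) and SRM (504 to 295, -0.63) were called lower. ODC1, CDK4, NPM1, CAD and SRM were named after their values were seen.

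The E-box stood in the promoter windows of 26 of the 47 MYC-activated genes that had at least 20 tags and a window, or 55.3%, against 13.4% of the 8293 such genes overall. Within the list, genes with it had a median log2 fold change of -0.53 and genes without it one of -0.61. Of the 26 genes with it 38.5% fell, and of the 21 without it 38.1%. These shares rest on 10 and 8 genes, and their difference was not tested. Over all counted genes with a window, 16.3% of those with the E-box fell and 15.6% of those without it.

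Genes described as repressed by MYC were called in both directions. Of the 13 found, 2 rose and 2 fell, where 9.53% of all genes rose and 12.2% fell, and the median log2 fold change was -0.19. Among the 9 with at least 100 tags these counts were also 2 and 2, where 16.6% and 22.5% of all such genes did. CDKN1A, encoding the CDK inhibitor p21, rose from 696 tags with shRNA-Con to 1941 in the shRNA-SOX2-labelled library, which is a log2 fold change of 1.62 (Fisher's exact test, adjusted p = 6.88e-160). BTG2, an antiproliferative gene, rose from 32 tags to 104 (1.84). GADD45A, a stress-induced growth arrest gene, fell from 282 to 166 (-0.63), and KLF6 from 153 to 84 (-0.73). CDKN1A, BTG2 and GADD45A are also p53 targets, of which CDKN1A and BTG2 rose and GADD45A fell. A part of p53 in these values was not tested. CDKN1C had 0 tags with shRNA-Con and 5 in the other library, and CDKN1B, encoding p27, had 73 and 67.

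Over all 10 lists 52 of 148 genes were called, or 35.1%, beside 21.7% of all genes. Calls depend on depth, which was not matched in this comparison. Of the 52 calls 39 were lower and 13 higher, so that 75.0% of the calls were lower against 56.1% over all genes. With clean tags as the scale these shares were 86.9% and 66.6%, and with TMM factors 70.2% and 49.4%. The lists were written with earlier results of these data known and share biology with one another, so their counts describe these libraries only. With an assumed coefficient of variation of 0.2 between cultures, none of the 148 genes (0) was called by edgeR's exact test, and 113 of all genes were.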

How the data were processed

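Poly(A) mRNA was selected with oligo(dT) beads from 4 µg of total RNA, and digital gene expression was run by the Beijing Genomics Institute. The authors deposited tag counts per Entrez Gene ID, with no normalization. The authors also deposited TPM (scaled to the clean tags, with a count of 0 written as 0.01), used here only to recover the clean tags. The deposited log2 ratio, p-value and FDR columns are the authors' own comparison and were not used. The submitters' processing notes name build hg19, and the aligner and annotation are not given in the sources used here.

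From the counts, Fisher's exact test (two-sided) set the tags of each gene against all other gene tags, and p-values were adjusted by the Benjamini-Hochberg method over 13137 genes at the study's FDR of 0.001. Depths were 2304184 (shRNA-Con) and 2093816 gene tags (shRNA-SOX2). In fold changes a count under 3 was set to 3, which is 1.30 CPM (shRNA-Con) or 1.43 CPM (shRNA-SOX2), where CPM is tags per 1000000 gene tags. The 95% Poisson interval of a count of 0 reaches 1.60 CPM (shRNA-Con) or 1.76 CPM (shRNA-SOX2). Intervals are 95% Clopper-Pearson (ratios, shares) or Poisson (levels). Alternatives were scaling by clean tags, by the median ratio or by TMM factors, at least 10 tags per gene, an assumed coefficient of variation of 0.1, 0.2 or 0.4, FDR 0.05, a minimum log2 fold change of 1, and 0.5 added to each count. The members and lists were chosen with earlier results of these data known. Within lists over 4 genes, up to 4 largest rises and 4 largest falls among calls with at least 20 tags were named, except that 1 such gene is not reported here. Genes most like MYC and MAX were the 3 with total tags within 10% and the nearest log2 fold change. Lists were matched by RefSeq gene ID or symbol. Rows with no symbol numbered 19. Python 3.11.15, scipy 1.17.1, R 4.3.3, edgeR 4.0.16 and DESeq2 1.42.0 were used, and the steps were tested on simulated data.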

Additional observations from a re-analysis of the deposited data

How the results depend on the processing

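No paired analysis was possible because there was 1 library on either side, and leaving out a library would have removed a side. The background of genes with at least 100 tags and the set of genes with at least the total tags of MYC were chosen after seeing the data. Of the 9 genes, 1 was called under every scaling (gene tags, clean tags, median ratio, TMM factors), and also with at least 10 tags, with an assumed coefficient of variation of 0.1 or with a log2 fold change beyond 1 required. None (0) was called with an assumed coefficient of 0.2 or 0.4 in edgeR's exact test, where 1 had an unadjusted p under 0.05 with 0.4, and 2 were called at FDR 0.05. The loss follows from the assumed spread, for which these libraries hold no replicate. Over all genes the 2849 calls became 1166 with a coefficient of 0.1, 113 with 0.2 and 0 with 0.4 (627 at an unadjusted p under 0.05), 4902 at FDR 0.05 and 1570 with that minimum fold change. Of the listed genes, the 52 calls became 19, 0 and 0 with these coefficients, 86 at FDR 0.05 and 23 with the minimum fold change. Of 45 alternative results for single members, 41 kept their direction and their side of FDR 0.001. With a coefficient of 0.2 the fold changes were not recomputed, so their direction could not turn. With a constant added to each count the p-values were not recomputed, so the side of FDR 0.001 could not change. MYC fell short of FDR 0.001 with a coefficient of 0.2. Its log2 fold change ranged from -2.09 with clean tags to -1.91 with TMM factors. The sign turned for MXI1 (0.056 for TMM, 0.054 for median-ratio scaling) and for MXD3 (-0.091 for clean tags), both within counting error. The median of counted genes was -0.10, and it became -0.03 under TMM and -0.22 under clean-tag scaling. Without MGA, the share of MYC in the partner pool was 69.4% with shRNA-Con and 37.0% in the shRNA-SOX2-labelled library. Depth limits MXD3 most, with 25 tags in all, and also MXD1 with 72 and MXD4 and MGA with 74 each.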
